A study of Mus musculus with 24 samples.

Results

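The metabotropic glutamate receptor genes Grm2, Grm3, Grm4, Grm5, Grm7 and Grm8 were followed in the mouse striatum. Their rows were found by gene symbol in 6 deposited tables, and all 6 genes were present in every table, among 24340 genes shared by the tables. RNA-seq had been carried out on 24 male mice on the C57BL/6J background. R6/1 mice were hemizygous for a transgene holding exon 1 of human HTT with an expanded CAG repeat, a model of Huntington's disease that carries a fragment of the gene rather than the whole. WT mice were their littermates without the transgene. RGFP109, an inhibitor of the histone deacetylases HDAC1 and HDAC3, was given over 3 weeks as 5 intraperitoneal injections per week of 30 mg/kg, and vehicle mice received DMSO in saline on the same schedule. Treatment began at 11 to 14 weeks of age, and the striatum was taken 18 h after the last injection at 14 to 17 weeks. The groups were WT-vehicle (n = 5 mice), R6/1-vehicle (n = 6), WT-RGFP109 (n = 6) and R6/1-RGFP109 (n = 7).

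Metabotropic glutamate receptors are G protein-coupled receptors that tune synaptic transmission over longer times than the ionotropic receptors. Group I, to which Grm5 belongs, couples to Gq, phospholipase C and calcium release. Group II (Grm2 and Grm3) and group III (Grm4, Grm6, Grm7 and Grm8) couple to Gi/o, lower cAMP and, on axon terminals, reduce transmitter release. In the striatum, Grm5 is abundant on the dendrites of projection neurons, where Homer proteins tether it. Grm3 is also well known from astrocytes, and Grm4 and Grm7 act largely on terminals.

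The members sit in separate parts of the genome, except that Grm7 and Grm8 are both on chromosome 6. The positions on mm10 are those of the tables, and the strands are those of the GENCODE annotation. Grm2 was at chr9:106644534-106656109 on the minus strand, a span of 11.6 kb, and Grm3 at chr5:9485236-9725352 on the minus strand. Grm4 was at chr17:27422388-27503533 on the minus strand, and Grm5 at chr7:87584168-88135063 on the plus strand. Grm7 was at chr6:110645598-111567230 on the plus strand and Grm8 at chr6:27275121-28134369 on the minus strand. Grm7 had the longest span of the members, 922 kb. In the GENCODE annotation the coding sequence ran from 2616 nt in Grm2 to 3609 nt in Grm5, in 6 exons for Grm2 and Grm3, 9 for Grm5 and 11 for Grm4, Grm7 and Grm8.

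RefSeq promoter windows on GRCm38.p6 matched 4 of the 6 members, Grm2, Grm3, Grm7 and Grm8, and not Grm4 and Grm5. The 250 bases before the start are shown for Grm2 and Grm3, the members with lower levels in R6/1 mice that have a window, and for Grm7, a member whose level did not pass the fold in any comparison. Capitals mark the GC box GGGCGG, searched on both strands, the letters bound by Sp-family factors. Grm2 is chr9:106656110-106656359 and Grm3 is chr5:9725353-9725602, both read on the minus strand, and Grm7 is chr6:110645262-110645511 on the plus strand, before the first of its starts.
Grm2: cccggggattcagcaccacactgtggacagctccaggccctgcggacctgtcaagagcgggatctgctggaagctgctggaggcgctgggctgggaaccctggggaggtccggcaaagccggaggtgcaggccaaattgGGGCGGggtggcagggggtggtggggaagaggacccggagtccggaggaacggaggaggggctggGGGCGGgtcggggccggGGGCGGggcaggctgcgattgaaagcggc
Grm3: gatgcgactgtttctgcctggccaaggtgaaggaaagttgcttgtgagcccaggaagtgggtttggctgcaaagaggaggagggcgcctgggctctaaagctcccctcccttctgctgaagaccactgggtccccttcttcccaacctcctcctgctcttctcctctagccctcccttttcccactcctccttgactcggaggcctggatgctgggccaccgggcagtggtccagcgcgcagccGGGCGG
Grm7: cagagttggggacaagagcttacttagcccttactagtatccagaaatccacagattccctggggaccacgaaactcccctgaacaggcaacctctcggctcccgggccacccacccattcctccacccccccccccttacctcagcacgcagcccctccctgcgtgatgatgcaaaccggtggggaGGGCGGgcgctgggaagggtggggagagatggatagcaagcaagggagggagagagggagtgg
The Grm2 window held 3 GC boxes, and the Grm3 and Grm7 windows 1 each. Over 32851 windows of this length, 32.7% held at least 1 GC box and 8.47% held 3 or more. The Grm2 window was 71.2% G or C with 16 CpG dinucleotides. Grm3 (62.4%) and Grm7 (62.0%) were alike, with 8 CpG dinucleotides each, beside a median of 52.4% and 6 over all windows. The window before the second Grm7 start, chr6:110645348-110645597, adjoins the Grm7 position given above and is not shown. It was 65.2% G or C with 9 CpG dinucleotides and 1 GC box. The first Grm8 window had 29 CpG dinucleotides. No window of a member held TGACGTCA, the full cAMP response element (1.55% of all windows), or TATAAA (12.4%). CCAAT, searched on both strands like the other motifs, was in windows of Grm2 and Grm8 (33.8% of all windows). In the Grm2 window it lies on the strand opposite to the printed one, where it reads ATTGG. All these matches describe letters only.

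Each table held 1 pooled FPKM (fragments scaled by transcript length and by the mapped fragments of the library) for each group, as the authors' value. No spread between mice can be given for these values, and no difference below was tested against it. A log2 ratio was taken within the table of each pair of groups after adding 0.05 FPKM, and a gene was counted as past the fold when the ratio was above 0.5 or under -0.5 (a change of 1.41-fold). Genes entered when at least 1 of the groups compared was above 0.1 FPKM, and all 6 members did. The share of all such genes past the fold is given beside the first counts of each comparison. From the spacing of low FPKM values, depth was estimated at about 10100000 to 12900000 reads per library. At this depth a member rested on 180 reads per kilobase (Grm2 in R6/1-vehicle) to 2165 (Grm5 in R6/1-RGFP109) summed over the mice of a group. Over 1 kilobase of transcript, that gives a counting error alone of 7.46% and 2.15%. The error is smaller over a whole transcript, since the coding sequences alone are 2616 nt or longer. A group's value differed by 3.11% to 3.95% between its 3 tables through a factor common to nearly all genes.

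Grm5 was the most abundant member in every group, and Grm8 or Grm2 the least. In WT-vehicle, Grm5 was at 29.0 FPKM, Grm3 at 24.7, Grm4 at 16.8, Grm7 at 13.9, Grm2 at 6.10 and Grm8 at 3.86. WT-RGFP109 had the same order. In R6/1-vehicle the order was Grm5, Grm7, Grm3, Grm4, Grm8 and Grm2. In R6/1-RGFP109 Grm3 and Grm7 changed places at 15.1 FPKM each, closer than the counting error over 1 kilobase. Among 12990 genes above 1 FPKM in all 4 groups, Grm5 stood at percentile 74.6 in WT-vehicle and 71.6 in R6/1-vehicle. Grm2 stood at percentile 28.9 and 11.2, and Grm3 at 70.5 and 56.5. Grm6, a family gene best known from the retina that is no member, was listed at 0 in all groups but R6/1-vehicle.

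**Figure D1:**
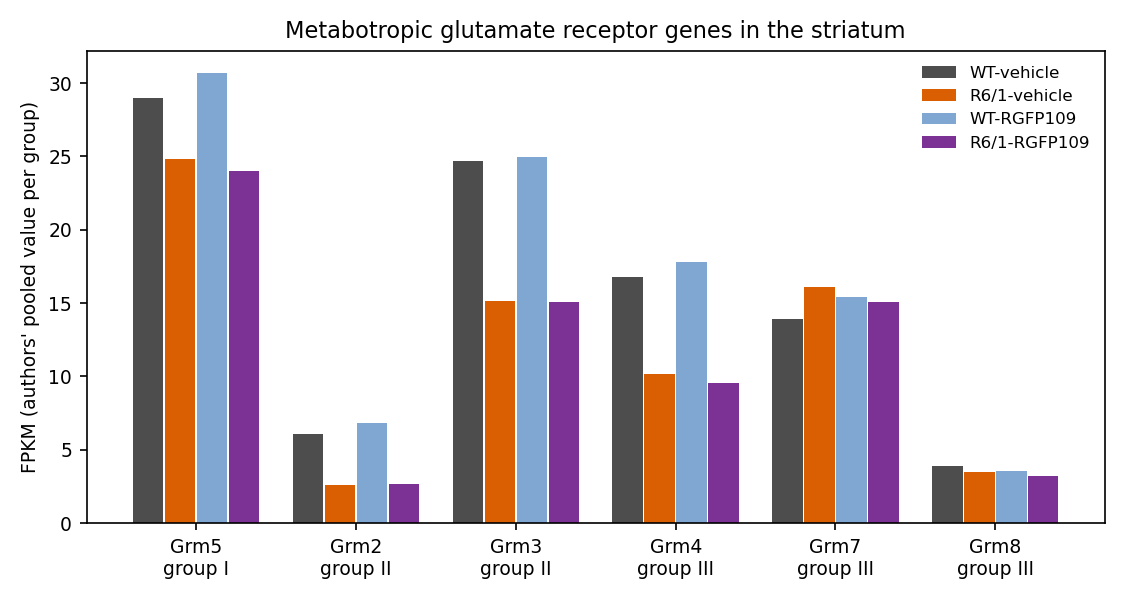
Bars give the authors' pooled FPKM of each receptor gene (y axis, linear, from 0) in the 4 groups, with no error bars because each group has 1 value. The R6/1 bars of Grm2, Grm3 and Grm4 are well under both WT bars, with Grm2 at 2.58 and 2.67 FPKM against 6.10 and 6.83.

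The first comparison asked how the receptor genes differ between R6/1 and WT mice given vehicle. Both group II genes and 1 group III gene were lower in R6/1-vehicle. Grm2, an autoreceptor of glutamate terminals, was at 6.10 FPKM in WT-vehicle and 2.58 in R6/1-vehicle, a 2.34-fold lower level (log2 ratio -1.23). Grm3, its group II relative, was at 24.7 FPKM against 15.2, or 1.63-fold lower (log2 ratio -0.70). Grm4, a group III receptor of terminals that include those of striatal projection neurons, was at 16.8 FPKM against 10.2, or 1.64-fold lower (log2 ratio -0.72). In bulk tissue, fewer cells of a type and less RNA per cell cannot be told apart.

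The other members stayed within the fold. Grm5, the Gq-coupled receptor, was at 29.0 FPKM in WT-vehicle and 24.8 in R6/1-vehicle (log2 ratio -0.22). Grm7, a low-affinity group III receptor of the active zone, was at 13.9 against 16.1 FPKM (log2 ratio 0.21), the single member with the higher value in R6/1-vehicle. Grm8 was at 3.86 against 3.50 FPKM (log2 ratio -0.14). Its counting error over 1 kilobase was 7.17% and 6.41% in these groups, and is smaller over the whole transcript. So 3 of 6 members were lower past the fold and 0 of 6 higher, beside 13.4% and 5.84% of 16972 genes. The median log2 ratio of the members was -0.46, and that of all genes -0.02. Of all genes, 2.86% had a ratio below that of Grm2, 8.37% below that of Grm3 and 8.17% below that of Grm4.

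The same genotypes were compared under RGFP109, in mice other than those given vehicle. Grm2, Grm3 and Grm4 were again lower in R6/1 mice. Grm2 was at 6.83 FPKM in WT-RGFP109 and 2.67 in R6/1-RGFP109, or 2.53-fold lower (log2 ratio -1.34). Grm3 was at 24.9 against 15.1 FPKM (1.65-fold lower, log2 ratio -0.73). Grm4 was at 17.8 against 9.54 FPKM (1.86-fold lower, log2 ratio -0.90). Within the fold, Grm5 was at 30.7 against 24.0 FPKM (log2 ratio -0.35), Grm7 at 15.4 against 15.1 (log2 ratio -0.03) and Grm8 at 3.56 against 3.21 (log2 ratio -0.15). Thus 3 of 6 members were lower and 0 of 6 higher past the fold, beside 11.7% and 5.39% of 16954 genes, with a median of -0.54 for the members and 0.00 for all genes. Being lower past the fold in both genotype comparisons was true of 3 of 6 members and of 7.74% of 16662 genes. Of 2114 genes lower in the vehicle comparison that entered both comparisons, 61.0% were lower under RGFP109 as well.

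**Figure D2:**
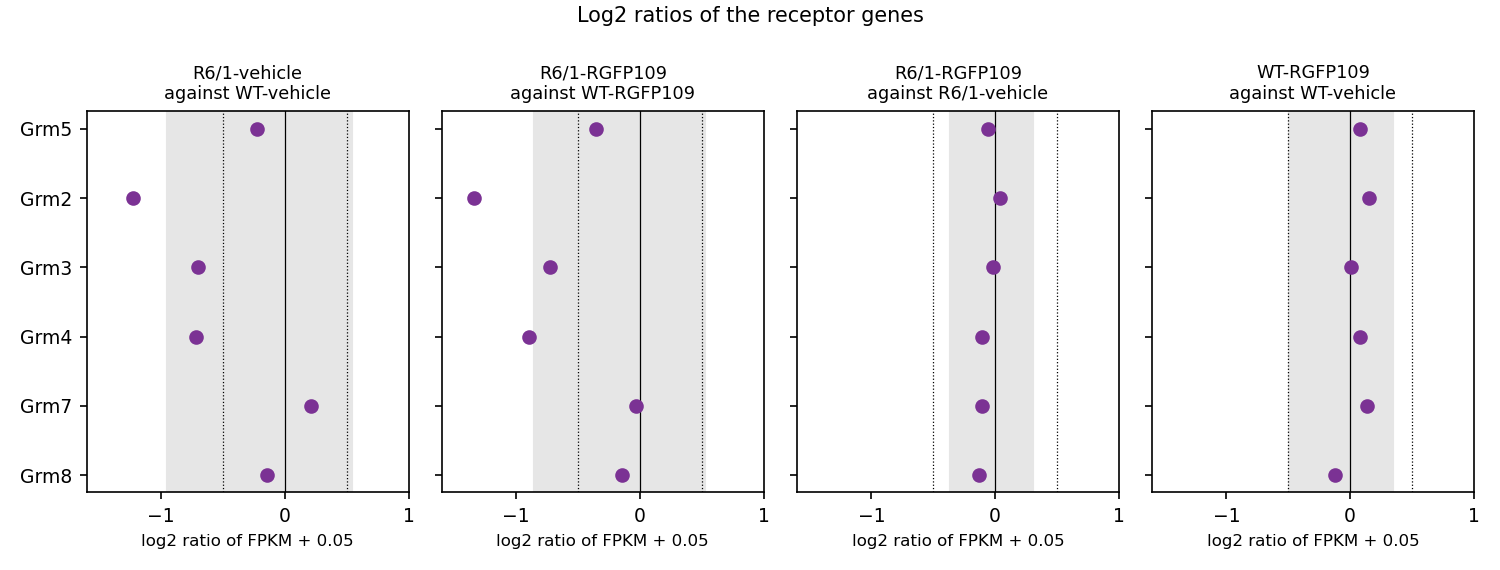
Each point is the log2 ratio of FPKM + 0.05 of 1 receptor gene (x axis) in 1 of 4 comparisons (panels), dotted lines mark the fold of 0.5, and grey bands span percentiles 5 to 95 of all genes. Grm2 lies outside the band in both genotype panels (-1.23 and -1.34), Grm4 in that under RGFP109 (-0.90), and all members lie inside the fold in the treatment panels.

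Treatment with RGFP109 was next compared with vehicle within each genotype. These comparisons use the same groups as the genotype comparisons and are not separate evidence. In R6/1 mice, 0 of 6 members passed the fold in either direction, beside 3.14% of 16840 genes lower and 2.62% higher. In the table of this pair, Grm2 was at 2.68 FPKM in R6/1-vehicle and 2.75 in R6/1-RGFP109 (log2 ratio 0.04). Grm3 was at 15.7 against 15.5 FPKM (log2 ratio -0.02) and Grm4 at 10.5 against 9.83 (log2 ratio -0.10). Neither Grm2 nor Grm3 differed by more than its counting error over 1 kilobase. The other members did, with Grm4 at -6.78%, Grm5 at -3.77%, Grm7 at -7.06% and Grm8 at -8.73%. Their counting errors in either group alone were at most 3.75%, 2.41%, 2.99% and 6.41%, and the spread between mice is not known. The log2 ratios of Grm5, Grm7 and Grm8 were -0.06, -0.11 and -0.13.

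In WT mice, 0 of 6 members passed the fold as well, beside 4.92% of 16957 genes lower and 3.19% higher. Grm2 was at 5.90 FPKM in WT-vehicle and 6.58 in WT-RGFP109 (log2 ratio 0.16), and Grm7 at 13.4 against 14.8 (log2 ratio 0.14). Grm3, Grm4 and Grm5 had log2 ratios of 0.01, 0.08 and 0.08, and Grm8 of -0.12. The treatment ratio in R6/1 minus that in WT was negative for each member, from -0.25 for Grm7 and -0.18 for Grm4 to -0.01 for Grm8. Percentiles 5 and 95 of this difference over all genes were -0.43 and 0.50, so each member lay inside that range, and the difference itself could not be tested.

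Set against WT-vehicle directly, R6/1-RGFP109 showed Grm2 at 6.12 against 2.66 FPKM (log2 ratio -1.18), Grm3 at a log2 ratio of -0.72 and Grm4 at -0.82. Grm5 and Grm8 were at -0.28 and -0.27, and Grm7 at 0.11.

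The summed FPKM of the members was 94.3 in WT-vehicle and 72.3 in R6/1-vehicle, and 99.2 in WT-RGFP109 and 69.5 in R6/1-RGFP109. The makeup of this sum also differed by genotype. Group II supplied 32.7% in WT-vehicle and 24.5% in R6/1-vehicle, and 32.0% and 25.5% under RGFP109. Grm7 supplied 14.8% against 22.3% with vehicle and 15.5% against 21.7% under RGFP109. The share of Grm5 was 30.7% in WT-vehicle against 34.3% in R6/1-vehicle, and 30.9% against 34.5% under RGFP109. These shares compare levels per kilobase of transcript, and a share can be higher because the other members are lower.

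**Figure D3:**
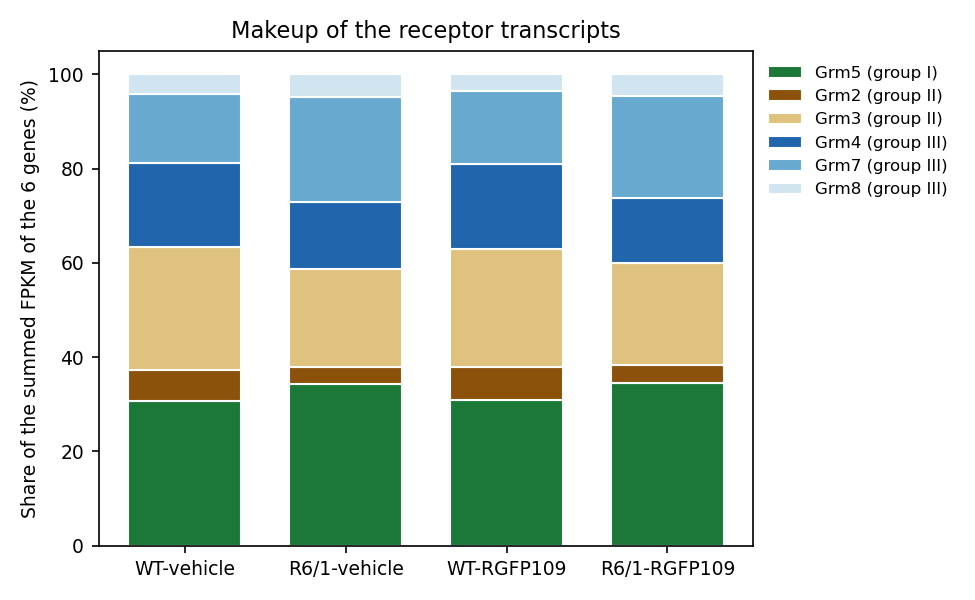
Stacked bars give each receptor gene's share (y axis, percent) of the summed FPKM of the 6 genes in each group (x axis). The bars of the R6/1 groups resemble each other, with Grm7 at 22.3% and 21.7%, as do those of the WT groups, with Grm7 at 14.8% and 15.5%.

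Genes that act with the receptors were taken from 4 lists. In the Gq arm, 5 of 14 genes were lower past the fold in R6/1-vehicle and 6 of 14 in R6/1-RGFP109, each against WT mice of the same treatment, beside 13.4% and 11.7% of all genes, and 0 were higher. The list's median log2 ratio was -0.39 and -0.35. Dgkz, a diacylglycerol kinase, was at 142 against 68.4 FPKM with vehicle (log2 ratio -1.05) and at -0.82 under RGFP109. Itpr1, the calcium release channel opened by inositol trisphosphate, had log2 ratios of -0.83 and -0.78, and Camk2a, a calcium-dependent kinase, of -0.75 and -0.68. Homer1, the scaffold of group I receptors, was at 28.0 against 17.7 FPKM with vehicle (log2 ratio -0.66) and at 30.2 against 17.3 under RGFP109 (log2 ratio -0.80). Homer2 and Homer3 stayed within the fold, at -0.38 and -0.29 with vehicle. Necab2, a calcium-binding partner of Grm5, was at 110 against 76.6 FPKM (log2 ratio -0.52) and then 101 against 64.2 (log2 ratio -0.65). Ncdn, another binding partner, was at -0.25 and -0.18. Plcb1, a phospholipase C, passed the fold under RGFP109 alone (log2 ratios -0.49 and -0.66), a difference that was not tested. So Grm5, within the fold, stood beside partners past it (Homer1 and Necab2) and partners within it (Homer2, Homer3 and Ncdn). The difference between Grm5 and these partners was not tested.

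In the Gi/o arm, 3 of 13 genes were lower with vehicle and 1 of 13 under RGFP109, with 0 higher and medians of -0.04 and 0.00. The shares over all genes were 13.4% and 11.7%, so the count under RGFP109 was not above the background, and 3 genes of 13 are few to set against it. Adcy5, the main adenylyl cyclase of the striatum, was at 221 FPKM in WT-vehicle and 97.6 in R6/1-vehicle (log2 ratio -1.18) and was at -1.24 under RGFP109. Adcy1 (-0.88 and -0.44) and the potassium channel subunit gene Kcnj9 (-0.58 and -0.41) were past the fold with vehicle only, and this difference was not tested. The G protein subunit gene Gnao1 was within the fold (-0.24 and -0.22).

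Of the receptor partners and desensitization genes, 10 of 12 symbols were in the tables. With vehicle 3 of these 10 were lower, and under RGFP109 4 of 10, with a median of -0.21 in both and 0 higher, beside the same 13.4% and 11.7% of all genes. Rgs4, which speeds the shut-off of Gi/o and Gq signals, was at 237 FPKM in WT-vehicle and 90.8 in R6/1-vehicle (log2 ratio -1.39), and at -1.36 under RGFP109. Elfn1, a postsynaptic adhesion protein that binds group III receptors across the synapse, was at 8.04 against 5.44 FPKM (log2 ratio -0.56) and then 9.45 against 4.37 (log2 ratio -1.10). Its relative Elfn2 was at -0.06 and -0.13. Grasp, which encodes a scaffold of group I receptors, was at -0.52 and -0.64, and Pick1, a scaffold that binds Grm7, at -0.02 and -0.05.

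Among genes of glutamate handling, 4 of 9 were lower and 1 of 9 higher with vehicle, and 3 of 9 lower under RGFP109, with medians of -0.40 and -0.46. Of all genes, 13.4% were lower and 5.84% higher with vehicle, and 11.7% lower under RGFP109. The vesicular transporter genes Slc17a7 and Slc17a8 had log2 ratios of -0.89 and -0.86 with vehicle and of -0.47 and -1.21 under RGFP109. Slc1a2, the main glial glutamate transporter, was at -0.73 and -0.68. Slc17a6, the vesicular transporter of thalamic terminals, was at 3.89 FPKM in WT-vehicle and 6.25 in R6/1-vehicle (log2 ratio 0.68), but at 6.11 in WT-RGFP109 and 5.14 in R6/1-RGFP109 (log2 ratio -0.25). In the treatment comparisons no gene of the 4 lists passed the fold apart from Slc17a6, which was higher in WT-RGFP109 than in WT-vehicle (log2 ratio 0.64).

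**Figure D4:**
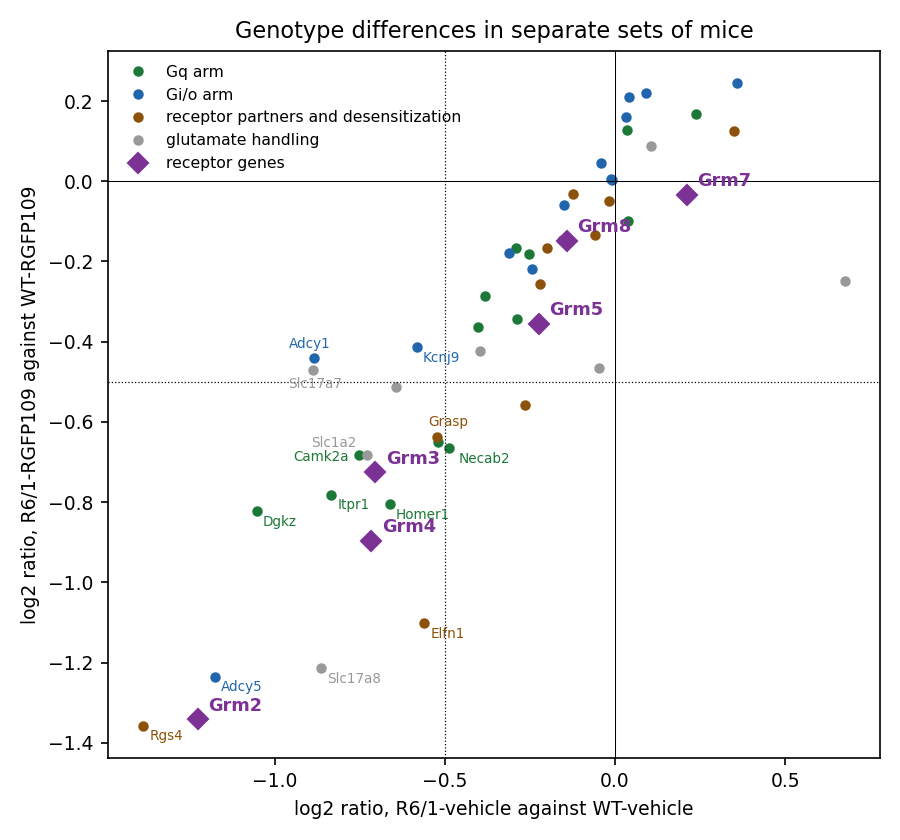
Points give the log2 ratio between R6/1 and WT mice with vehicle (x axis) and under RGFP109 (y axis) for the 6 receptor genes (diamonds) and the genes of 4 pathway lists (circles), with dotted lines at the fold of -0.5. Grm2, Grm3 and Grm4 lie past the fold on both axes, as do Adcy5 (-1.18 and -1.24) and Rgs4 (-1.39 and -1.36).

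Marker genes of the cell types that a striatal sample may hold also differed between the groups, and their part in the receptor results was not tested. The counts below stand beside 13.4% of all genes lower and 5.84% higher with vehicle, and 11.7% lower and 5.39% higher under RGFP109. Slc17a6, Slc17a7, Slc1a2 and Slc1a3 of the glutamate handling list stand on marker lists too. No marker of any list was at 0 in both groups of a comparison. D2 projection neuron markers had 4 of 5 genes lower with vehicle (summed 1405 FPKM in WT-vehicle and 376 in R6/1-vehicle) and 4 of 5 under RGFP109 (1377 against 338). D1 projection neuron markers had 2 of 5 lower and 1 higher with vehicle (373 against 293 FPKM) and 3 of 5 lower under RGFP109 (421 against 272). All 5 interneuron markers were lower in both comparisons, at 955 against 504 FPKM in sum with vehicle and 926 against 499 under RGFP109. Their median log2 ratios were -0.90 and -0.99. Astrocyte markers, of a cell type known for Grm3, had 2 of 7 lower with vehicle (Slc1a2 and Sox9, 648 against 454 FPKM in sum). Under RGFP109 2 of 7 were lower (Slc1a2 and Aqp4, 656 against 453), with Slc1a2 alone in both. The median log2 ratios of the astrocyte markers were -0.37 and -0.42. At a fold of 0.25, 7 of 7 were lower in both comparisons, beside 4461 of 16972 genes with vehicle and 3956 of 16954 under RGFP109. This was not particular to astrocytes. At that fold 5 of 5 interneuron, 4 of 5 D2 projection neuron and 4 of 5 microglia markers were lower in both comparisons. Oligodendrocyte markers had 5 of 5 lower with vehicle and 2 of 5 under RGFP109, and oligodendrocyte precursors 0 of 2 in both. Microglia and oligodendrocyte precursor markers had none past the fold among 5 and 2 genes, endothelial markers 1 of 3 lower in both.

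Neocortical neuron markers were lower in 7 of 7 genes with vehicle (358 against 197 FPKM, median log2 ratio -0.75) and in 0 of 7 under RGFP109 (331 against 251 FPKM, median -0.13). Under RGFP109, Slc17a7 (log2 ratio -0.47) and Fezf2 (-0.49) lay just within the fold. At a fold of 0.25, 2 of 7 were lower and 1 higher there, beside 3956 and 2608 of 16954 genes. Grm2, a gene that cortical neurons also express, was 2.34-fold lower with vehicle and 2.53-fold lower under RGFP109. The part of cortical content in the Grm2 values was not tested. Between R6/1-RGFP109 and R6/1-vehicle, 3 of 7 neocortical markers were higher (2.62% of all genes), and Grm2 was at a log2 ratio of 0.04. Oligodendrocyte markers were lower in 3 of 5 genes with vehicle (4411 against 2482 FPKM) and in 0 of 5 under RGFP109. Of the thalamic markers, 1 of 4 was lower (Prkcd) and 1 higher (Slc17a6) with vehicle, and 0 of 4 passed under RGFP109. Choroid plexus markers were lower in 4 of 5 genes in each genotype comparison and in 5 of 5 in both treatment comparisons (3.14% of all genes in R6/1 and 4.92% in WT mice), where no receptor gene passed the fold.

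The genes most like each member were those with the smallest root mean square difference over the 4 log2 ratios (genotype with vehicle, genotype under RGFP109, treatment in R6/1, treatment in WT), among 12990 genes and with 1 pooled value per group. Among the genes named for Grm2 was Camk1g (0.0639). Camk1g was at 21.6 FPKM in WT-vehicle against 8.96 in R6/1-vehicle, and at 22.6 against 9.34 under RGFP109. Grm3 was closest to Wipf3 (0.0184) and Cbr3 (0.0319), and Grm4 to Hvcn1 (0.0207) and Lcat (0.0342). Among those named for Grm5 was Plekha5 (0.0136). Grm7 was closest to Dnajc25 (0.00829) and Ppm1l (0.0110), and Grm8 to Efcab12 (0.00423) and Pbxip1 (0.00817). Distances were larger for Grm2 than for the rest. Within the family, Grm3 and Grm4 were nearest to each other (0.102), although they belong to different groups. The member closest to Grm2 was Grm4 (0.347). Distances between members cannot be set against those above, which are the smallest among 12990 genes.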

How the data were processed

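Striatal RNA of 24 mice was sequenced (TruSeq libraries, single-end reads of 51 bp). The authors aligned reads with STAR 2.5.0b to RefSeq mm10, computed FPKM values with Cufflinks 2.2.1 and compared each pair of groups with Cuffdiff, and they deposited 6 tables with 1 pooled FPKM per group. The tables also hold the authors' own fold changes, test statistics, p-values and q-values, which were not used. Cuffdiff scales within a pair, so ratios were taken within 1 table, and levels came from the vehicle and RGFP109 genotype tables. Pooling hides the spread between mice and between sequencing pools, so no test, SD or p-value is given.

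Log2 ratios used a pseudocount of 0.05 FPKM, a filter of 0.1 FPKM and a fold of 0.5, as described with the results. Depth was read from the steps of low FPKM in genes with 1 transcript over 1500 nt, an approximation, since Cufflinks estimates fractional fragments. Reads of overlapping genes cannot be separated here. The script was tested on simulated data. All 6 members were named, with the 3 genes of each pathway list that differed most with vehicle, direct receptor partners, and the 2 nearest genes in pattern. The results of some genes are not reported here. Gnao1 and Plcb1, and Slc17a6 where it passed the fold, were named after their values were seen. The members, lists and rules were chosen with earlier results of these data known. Alternatives covered pseudocount, filter, fold, table and centring. Python 3.11.15, numpy 2.4.6, pandas 2.3.3 and matplotlib 3.10.9 were used.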

Additional observations from a re-analysis of the deposited data

How the results depend on the processing

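Other pseudocounts (0 and 1 FPKM), tables and a centring on the median of all genes recompute the log2 ratios of the members, and 120 of 120 kept their direction and their side of the fold. The other filters and folds leave these ratios as they are by construction. At a fold of 1 in place of 0.5, 1 member was lower in R6/1-vehicle than in WT-vehicle and 1 in R6/1-RGFP109 than in WT-RGFP109, Grm2 in both, since Grm3 and Grm4 no longer passed. At a fold of 0.25, Grm5 passed in R6/1-RGFP109 against WT-RGFP109. The largest shift of a ratio was 0.246, with 1 FPKM added, and 0.0192 outside the pseudocounts. Of 240 list counts under other folds, 55 moved by more than 1.5 times or changed from or to 0. Over all genes, the 2275 lower in R6/1-vehicle became 1190 with 1 FPKM added, 1504 above 1 FPKM, 4461 at a fold of 0.25 and 755 at a fold of 1, and the 1978 lower in R6/1-RGFP109 became 978, 1288, 3956 and 628. In the same order, the 991 higher in R6/1-vehicle became 382, 590, 2939 and 295, and the 914 higher in R6/1-RGFP109 became 324, 528, 2608 and 271. With treatment in R6/1 mice the 529 lower became 180, 220, 1285 and 192 and the 442 higher 191, 225, 1049 and 196, or 693 with no filter. With treatment in WT mice the 835 lower became 235, 328, 1908 and 303 and the 541 higher 206, 253, 1257 and 247, or 862 with no filter. No paired analysis was possible because each table holds 1 pooled value per group, and for the same reason leaving out each library in turn was not run. Depth limits Grm2 and Grm8 most, and the spread between mice is not known here.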
